A study of Mus musculus with 4 samples.

Results

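Replication-dependent histone genes encode the linker histone H1 and the core histones H2A, H2B, H3 and H4, which package newly copied DNA. They were taken as every entry of the deposited count tables whose symbol begins with Hist1h, Hist2h, Hist3h or Hist4h, and the letters after the cluster name gave the class. The rule found 76 of 22722 genes, with 6 of class H1, 22 of H2A, 21 of H2B, 13 of H3 and 14 of H4. By cluster, 59 were Hist1 genes, 13 were Hist2 genes, 3 were Hist3 genes and 1 was a Hist4 gene.

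The cells were MPC11, a mouse plasmacytoma line, that is, a tumour line of antibody-secreting plasma cells. Ell2-KD cells (2 libraries) had been infected with pLKO.1-shELL2-1C7, a lentivirus that carries a short hairpin RNA against Ell2, which encodes an elongation factor of RNA polymerase II. shGFP cells (2 libraries), the controls, had been infected with pLKO.1-shGFP, whose hairpin targets a jellyfish protein gene that mouse cells lack. Both groups were therefore lentivirus-infected, puromycin-selected populations: the virus stayed on for 18 h, selection lasted 72 h and a further expansion lasted 72 h. The series was designed to examine pre-mRNA splicing. There was 1 hairpin against Ell2, so an effect of Ell2 loss and an effect of that hairpin on other transcripts cannot be told apart. The labels call the 2 libraries of a group biological replicates but do not say that they were infected separately, so p-values measure only the spread between these libraries, which may be technical.

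Replication-dependent histone genes are transcribed mainly in S phase, when cells need new nucleosomes, and their mRNAs are the main animal mRNAs that end without a poly(A) tail. In its place they end just after a short stem-loop, which is bound by the stem-loop binding protein SLBP and is cut with the help of the U7 small nuclear RNP. Replication-independent variants such as H2A.Z and H3.3 come from ordinary polyadenylated mRNAs and are made throughout the cell cycle. ELL family proteins travel with RNA polymerase II, and the related little elongation complex is known for its part at small nuclear RNA genes. The labels name total RNA and also speak of purified mRNA, and whether poly(A) selection was used is not given in the sources used here. Such a step bears on mRNAs that lack the tail.

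The stem-loop is shown first because it is what sets these mRNAs apart. It was searched as GGNNCTNNNNAGNNCC, with 6 paired bases in each arm (G-T pairs allowed) and a 4-base loop, on the coding strand after the stop codon of the GENCODE M21 transcripts (build GRCm38). Of 50 distinct members whose annotated transcript runs at least 45 bases past the stop codon, 44 held it, against 268 of 21834 other protein-coding genes (1.23%) that held it anywhere in a transcript. It was present in 4 of 5 H1 genes, 11 of 11 H2A genes, 9 of 14 H2B genes, 8 of 8 H3 genes and 12 of 12 H4 genes, and it began 22 to 59 bases after the stop codon (median 32.5). For each member a single transcript was searched, that with the longest coding sequence, whereas every transcript of the other genes was searched. The H2B genes without a match were Hist1h2bc, Hist1h2bp, Hist1h2bq, Hist1h2br and Hist2h2be, whose transcripts all hold an AATAAA poly(A) signal. The transcript of Hist1h1a, the H1 gene without a match, runs only 48 bases past the stop codon. A miss therefore does not show that a gene lacks the stem-loop. In the lines below, 26 bases around the loop are written 5′ to 3′ with the arms in capitals. They come from the most abundant member of H1, H2A and H3, an H2B gene and 3 H4 genes. The last line is H2afx, which was grouped here with the replication-independent genes but holds the same motif.
Hist1h1d (H1, chr13:23555782-23555807, plus strand): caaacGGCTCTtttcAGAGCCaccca
Hist1h2ab (H2A, chr13:23751567-23751592, plus strand): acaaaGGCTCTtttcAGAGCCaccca
Hist1h2bb (H2B, chr13:23747198-23747223, plus strand): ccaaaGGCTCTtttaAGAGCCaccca
Hist1h3g (H3, chr13:23535884-23535909, plus strand): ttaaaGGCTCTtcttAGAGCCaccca
Hist1h4f (H4, chr13:23551286-23551311, minus strand): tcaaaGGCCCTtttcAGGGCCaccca
Hist2h4 (H4, chr3:96262934-96262959, minus strand): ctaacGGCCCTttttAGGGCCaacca
Hist4h4 (H4, chr6:136803993-136804018, minus strand): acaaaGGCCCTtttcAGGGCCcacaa
H2afx (H2A.X, chr9:44335235-44335260, plus strand): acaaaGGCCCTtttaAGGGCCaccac
The arm separated H4 from the other classes. Its 2 variable bases, written NN in the search, were CT in all 32 of the H1, H2A, H2B and H3 genes with a stem-loop, whereas in H4 genes they were CC in 10 and TC in 2. Of the 10 histone genes searched that were grouped here as replication-independent, H2afx alone held the motif, with the CC arm. A match describes the letters in these transcripts and is no measure of processing in MPC11 cells.

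The knockdown was first checked in each library. Ell2 had 1238 and 394 counts in Ell2-KD replicates 1 and 2, against 7864 and 5019 in shGFP replicates 1 and 2, or 87.8 and 115 CPM against 938 and 996 CPM. CPM are counts relative to the size of the library, which was scaled by TMM factors. The groups did not overlap, and Ell2 fell by 3.25 on the log2 scale (SE 0.23; edgeR quasi-likelihood test, Benjamini-Hochberg adjusted p = 0.00032). Totals were 13914488 and 3496471 counts in Ell2-KD libraries and 8323915 and 5088789 in shGFP libraries, so 1 count was worth 0.0709 to 0.293 CPM. Of 11027 genes tested, 5 passed an adjusted p of 0.05. The 5 plasma cell markers were all detected, summing to 15560 and 12561 CPM in Ell2-KD libraries and to 18987 and 14615 CPM in shGFP libraries, and none of them passed the test. The summed markers of T and NK cells and of erythroid cells stayed under 3 CPM in every library, with Hbb-b1 at 0. The 5 myeloid markers summed to 7.87 and 34.8 CPM in Ell2-KD libraries, against 13.0 and 8.93 CPM in shGFP libraries, with Cd68 as the main part. The fibroblast and epithelial markers summed to 445 to 634 CPM in the 4 libraries, nearly all of it Epcam.

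Of the 76 histone genes, 58 had enough counts to be tested: 6 of H1, 13 of H2A, 16 of H2B, 11 of H3 and 12 of H4. A further 13 were at 0 in all 4 libraries. All 13 are among the 16 entries with a suffix that marks a repeated copy of a gene, and such copies share their whole sequence, and how reads that fit several copies were counted is not given in the sources used here, so a 0 there does not show that the gene is silent. The 5 remaining entries had too few counts: Hist1h2aa and Hist1h2ba, Hist1h4m, 1 copy of Hist2h3c1, and 1 copy of Hist2h2aa1 with 7 counts in Ell2-KD replicate 2 and 0 elsewhere. Reads cannot be assigned equally well in every class. The median share of the 35-base windows of a member's coding sequence that also occur in another gene, leaving out genes that overlap it, was 14.7% for H1, 87.3% for H2A, 82.7% for H2B, 86.5% for H3 and 74.5% for H4. Values of most single core histone genes are therefore uncertain, since reads could be split between near-identical copies. The class sums do not depend on how reads are split among members of a class. They would still miss reads that were discarded because they fit several genes, or that were counted in a gene outside the class. Hist4h4 (0%), Hist1h1a (0%), Hist1h1b (2.51%), Hist2h2bb (5.19%) and Hist2h4 (11.2%) are the abundant members with the least sequence shared by this measure, though the whole coding sequence of Hist2h2bb also lies in genes that overlap it.

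The library shGFP replicate 2 stood apart in histone mRNA. Histone genes took 0.534% and 0.648% of all counts in Ell2-KD replicates 1 and 2, against 0.566% and 0.966% in shGFP replicates 1 and 2. Summed over the 76 genes, this was 5273 and 6630 CPM in Ell2-KD libraries and 5623 and 9750 CPM in shGFP libraries, so the 2 groups overlapped and only shGFP replicate 2 lay well above the rest. It was the highest of the 4 libraries for 42 of the 58 tested members (72.4%), against 21.3% of all genes tested. By class, it was the highest for 4 of 6 H1, 11 of 13 H2A, 9 of 16 H2B, 8 of 11 H3 and 10 of 12 H4 genes. Results below are therefore given for the group, within each replicate number, and without that library.

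No histone gene passed the test between Ell2-KD and shGFP cells, where 0.0453% of all genes did. The smallest adjusted p over the 58 was 0.706 and the largest 0.999 (edgeR, Benjamini-Hochberg over all genes). Of the 58, 45 had a negative log2 change (77.6%), against 50.1% of all genes, and their median was -0.31, against -0.00 for all genes. That median rested on 1 library. Without shGFP replicate 2 it was 0.15 and only 17 of the 58 were negative, and without each of the other 3 libraries in turn it lay between -0.63 and -0.22. In bulk RNA, fewer cells in S phase and less histone mRNA per S-phase cell cannot be told apart.

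**Figure D1:**
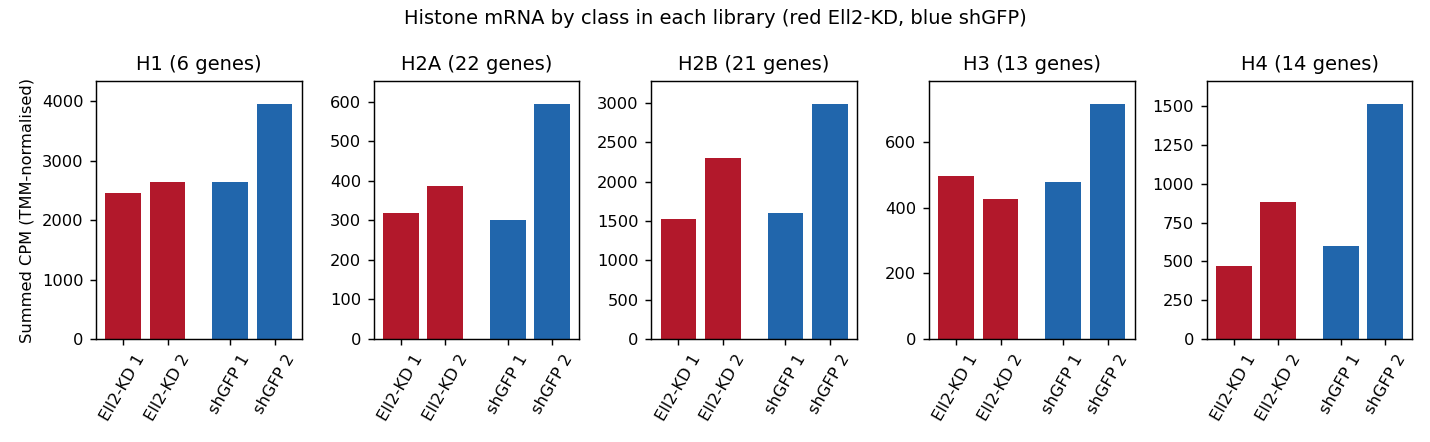
Summed TMM-normalised CPM of each histone class in each of the 4 libraries, Ell2-KD in red and shGFP in blue; every panel has its own axis starting at 0. In all 5 classes shGFP replicate 2 is the tallest bar, and the other 3 libraries lie close together except in H2B and H4, where Ell2-KD replicate 2 is also raised.

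The replicate numbers gave different pictures. Within number 1 (Ell2-KD replicate 1 minus shGFP replicate 1), the median log2 CPM difference of the 58 was 0.03, with 28 negative. Within number 2 it was -0.61, with 50 negative, while the median over all genes was 0.00 in number 1 and -0.02 in number 2. At least 1.5-fold lower in Ell2-KD cells were 8 members (13.8%) within number 1, against 18.9% of all genes, and 31 members (53.4%) within number 2, against 21.7% of all genes. At least 1.5-fold higher were 9 members within number 1 (all genes 17.5%) and 4 within number 2 (all genes 15.9%). In both numbers 25 members were lower (43.1%), against 29.3% of all genes. A replicate number compares 1 library with 1, so these values have no replicate check of their own.

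**Figure D2:**
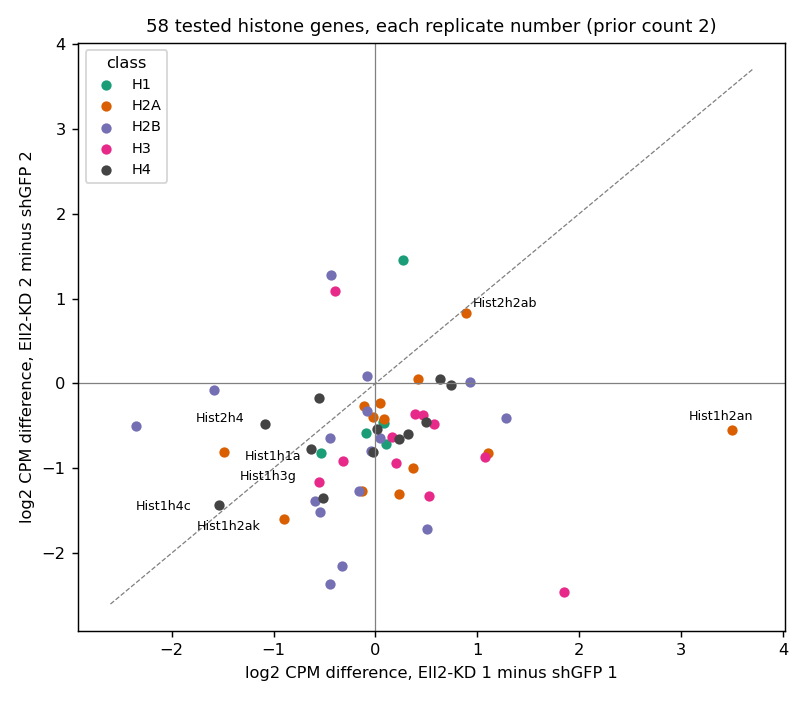
Each point is 1 of the 58 tested histone genes, with the log2 CPM difference Ell2-KD 1 minus shGFP 1 on the x axis and Ell2-KD 2 minus shGFP 2 on the y axis (prior count 2), coloured by class; the dashed line marks equal differences. The points centre near 0 on the x axis (median 0.03) and below 0 on the y axis (median -0.61), with Hist2h4, Hist1h2ak, Hist1h4c and Hist1h1a below 0 on both and Hist2h2ab above 0 on both.

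At the level of single genes, both Ell2-KD libraries lay below both shGFP libraries for 11 members (19.0%), against 18.5% of all genes tested, a share near the background. They lay above both for 3 members, Hist1h4i, Hist2h2ab and Hist1h1t, against 17.4% of all genes. Without adjustment, 4 members had p under 0.05 in the lower direction (all genes 3.26%) and 0 in the higher direction (all genes 2.57%). This number depended on the settings. In either direction it was 9 with the replicate block, and it also rose when any 1 library was left out. The share of all genes at those settings is not given here, so the rise cannot be read as a result about histone genes. The 4 members of the main test were Hist1h2ak, Hist2h4, Hist1h2bk and Hist1h1a, and they come from 4 different classes.

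H1 had the largest summed CPM of the 5 classes, with no correction for length, and H1 coding sequences (630 to 672 bases) are longer than those of H2B (381 to 417 bases). H1 genes also share the least sequence, with a median of 14.7% of windows against 74.5% to 87.3% in the core classes. How reads that fit several genes were counted is not given, so the order of the classes by CPM need not be their order by mRNA. The linker histone binds where DNA enters and leaves the nucleosome. H1 mRNA summed to 2465 and 2640 CPM in Ell2-KD libraries (mean 2552 ± 124, SD, n = 2), against 2641 and 3950 CPM in shGFP libraries (3295 ± 925). It made up 46.7% and 39.8% of histone counts in Ell2-KD libraries and 47.0% and 40.5% in shGFP libraries. The log2 ratio of Ell2-KD over shGFP was -0.10 within number 1, -0.58 within number 2, -0.37 for the group means and -0.05 without shGFP replicate 2. Apart from shGFP replicate 2 the H1 sums lay within a narrow range.

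Hist1h1d, the gene of H1.3, was the most abundant H1 gene, with 737 and 706 CPM in Ell2-KD libraries and 700 and 964 CPM in shGFP libraries. Hist1h1e, for H1.4, had 444 and 580 CPM in Ell2-KD libraries and 473 and 871 CPM in shGFP libraries. Hist1h1b, for H1.5, had 425 and 540 CPM in Ell2-KD libraries, against 401 and 746 CPM in shGFP libraries. In all of these, and in Hist1h1c (343 and 507 CPM in Ell2-KD libraries, 320 and 830 CPM in shGFP libraries), the groups overlapped and shGFP replicate 2 was the highest.

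Hist1h1a, the gene of H1.1, had another pattern. It had 514 and 304 CPM in Ell2-KD replicates 1 and 2, against 746 and 537 CPM in shGFP replicates 1 and 2. The groups did not overlap, and in both groups replicate 1 was higher than replicate 2, which held for no other abundant H1 gene. Its log2 change was -0.65 (SE 0.28; edgeR adjusted p = 0.83). No 35-base window of the Hist1h1a coding sequence occurs in another gene. Hist1h1t, the testis-specific linker histone, was near the detection limit with 25 and 9 counts in Ell2-KD libraries and 12 and 4 in shGFP libraries (log2 change 0.94, SE 1.48).

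H2A and H2B form the dimers that flank the H3-H4 tetramer in the nucleosome. H2A mRNA summed to 318 and 386 CPM in Ell2-KD libraries (352 ± 48.2, SD, n = 2) and to 301 and 593 CPM in shGFP libraries (447 ± 206). Its log2 ratio was 0.08 within number 1, -0.62 within number 2, -0.34 for the group means and 0.23 without shGFP replicate 2. Here the sign of the group difference was set by that library.

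Among H2A genes, Hist1h2ab was the most abundant, with 57.5 and 89.3 CPM in Ell2-KD libraries and 58.7 and 117 CPM in shGFP libraries. Hist3h2a, in the small Hist3 cluster, had 56.7 and 75.5 CPM in Ell2-KD libraries and 54.9 and 88.5 CPM in shGFP libraries, and Hist1h2ai had 37.4 and 33.1 CPM in Ell2-KD libraries and 31.7 and 81.8 CPM in shGFP libraries. In these 3 genes the groups overlapped.

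Hist1h2ak had the smallest p of all 58 members. It had 263 and 60 counts in Ell2-KD libraries and 294 and 270 counts in shGFP libraries, which is 18.7 and 17.6 CPM against 35.1 and 53.6 CPM. The Ell2-KD libraries were nearly equal and both lay below both shGFP libraries. The log2 change was -1.29 (SE 0.43; edgeR adjusted p = 0.706), with -0.90 within number 1 and -1.59 within number 2. As 66.9% of its windows occur in another gene, part of this count may belong to other H2A genes. Hist2h2ab lay on the other side, with 14.3 and 19.6 CPM in Ell2-KD libraries against 7.63 and 10.9 CPM in shGFP libraries, without overlap (log2 change 0.87, SE 0.60; edgeR adjusted p = 0.92). Hist1h2an was the least stable: it had 171 and 75 counts in Ell2-KD libraries, against 7 and 163 in shGFP libraries.

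**Figure D3:**
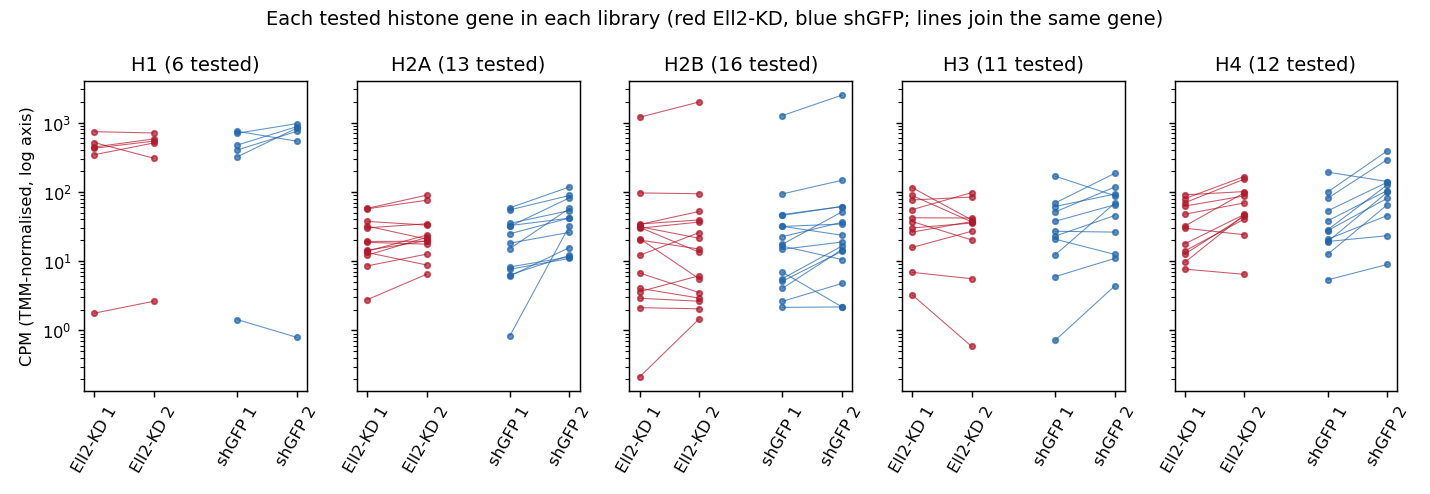
TMM-normalised CPM on a log axis of each tested histone gene in the 4 libraries, Ell2-KD in red and shGFP in blue, with lines joining the 2 replicates of the same gene. Most H4 genes are higher in replicate 2 than in replicate 1 of both groups, the H1 genes apart from Hist1h1t form a band at 304 CPM and above, and Hist2h2bb lies far above the other H2B genes.

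Many H2A and H2B genes lie head to head and share 1 promoter region. In the RefSeq promoter table (GRCm38.p6), 9 such H2A and H2B pairs had starts at most 600 bases apart, and both genes were tested in 7. Both log2 changes were negative in 5 pairs, opposite in 2 and positive in 0, where 77.6% of the 58 tested members were negative. Hist1h2ak (-1.29) and its partner Hist1h2bn (-1.74) were such a pair, as were Hist1h2ad (-1.13) and Hist1h2bf (-1.19), and Hist1h2ai (-0.68) and Hist1h2bl (-1.42). None of these genes passed the test, and whether the 2 genes of a pair moved together more than other members was not tested. Within number 1 Hist1h2ai was higher in Ell2-KD cells (log2 difference 0.24). In Ell2-KD replicate 2, Hist1h2bl had 10 counts and Hist1h2ad 22, and all windows of Hist1h2ad occur in another gene. Hist1h2bn was low in every library, at 2.91 and 2.63 CPM in Ell2-KD libraries and 4.05 and 14.7 CPM in shGFP libraries. The shared region of Hist1h2ak and Hist1h2bn, whose starts are 164 bases apart, is shown as the 150 bases before the Hist1h2ak start, with CCAAT boxes on either strand in capitals.
Hist1h2ak promoter (GRCm38.p6, chr13:21753913-21754062, minus strand): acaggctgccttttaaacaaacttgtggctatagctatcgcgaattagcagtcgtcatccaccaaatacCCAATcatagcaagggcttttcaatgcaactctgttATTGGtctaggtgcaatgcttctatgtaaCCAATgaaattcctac
Promoters were searched over 250 bases before the start, on both strands, for CCAAT, for the TATA box TATAAA and for the octamer ATTTGCAT, which is bound by Oct-1. CCAAT was found in 50 of 61 members with a promoter (82.0%), against 33.9% of all promoters, and the classes differed, with 6 of 6 H1, 17 of 17 H2A, 16 of 16 H2B, 8 of 10 H3 and 3 of 12 H4 promoters. The octamer was found in 7 of 17 H2A and 6 of 16 H2B promoters and in none of the H1, H3 and H4 promoters, against 1.60% of all promoters. TATAAA was found in 29 of 61 (47.5%), against 12.4%. A promoter shared by a pair is counted for each of its genes, and a match is a description of the letters, not of binding.

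H2B mRNA summed to 1521 and 2297 CPM in Ell2-KD libraries (1909 ± 549, SD, n = 2), against 1608 and 2983 CPM in shGFP libraries (2295 ± 972). Its log2 ratio was -0.08 within number 1, -0.38 within number 2, -0.27 for the group means and 0.25 without shGFP replicate 2. The sum was governed by 1 gene. Hist2h2bb had 1191 and 1975 CPM in Ell2-KD libraries and 1260 and 2483 CPM in shGFP libraries, which was 78.3% and 86.0% of H2B counts in Ell2-KD libraries and 78.4% and 83.3% in shGFP libraries. Replicate 2 was the higher library in both groups, and the groups overlapped (log2 change -0.24, SE 0.39). Per kilobase of coding length it had the highest level of all members, at 4534 CPM per kb, against 1166 CPM per kb for Hist1h1d. Leaving out genes that overlap it, 5.19% of its windows occur in another gene, against a median of 82.7% for H2B. Its share of H2B counts may therefore depend on how shared reads were counted, which is not given. Its GENCODE M21 transcript overlaps Gm20628 on the opposite strand and Gm42743 on the same strand, so reads of these genes could not be told apart from its own.

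Without Hist2h2bb, H2B summed to 330 and 322 CPM in Ell2-KD libraries, against 347 and 499 CPM in shGFP libraries. The 2 Ell2-KD libraries then lay close together and below both shGFP libraries. The log2 ratio was -0.08 within number 1, -0.63 within number 2, -0.38 for the group means and -0.09 without shGFP replicate 2. Both Ell2-KD libraries lay below both shGFP libraries for 7 of 16 tested H2B genes, against 11 of 58 members (19.0%) and 18.5% of all genes, and no difference between classes was tested. The 7 were Hist1h2bb, Hist1h2bc, Hist1h2bk, Hist1h2bl, Hist1h2bn, Hist1h2bp and Hist3h2ba. Some of them rested on few reads. Hist1h2bp had 3 and 5 counts in Ell2-KD libraries and 18 and 11 in shGFP libraries. Hist3h2ba had 30 and 7 counts in Ell2-KD libraries and 58 and 11 in shGFP libraries. In Ell2-KD replicate 2, Hist1h2bl had 10 counts and Hist1h2bn had 9.

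Hist1h2bk had the smallest p of the H2B genes, with 31.4 and 21.4 CPM in Ell2-KD libraries against 45.8 and 61.3 CPM in shGFP libraries (log2 change -1.01, SE 0.39; edgeR adjusted p = 0.794). Hist1h2bb had 34.3 and 39.2 CPM in Ell2-KD libraries against 47.0 and 61.3 CPM in shGFP libraries. Hist1h2bg, the second H2B gene by level, had 96.4 and 93.7 CPM in Ell2-KD libraries and 93.2 and 147 CPM in shGFP libraries. Thus Hist1h2bg was about equal in 3 libraries, whereas Hist1h2bk and Hist1h2bb separated the groups. The share of windows that occur in another gene was 95.4% for Hist1h2bk, 87.3% for Hist1h2bg and 62.0% for Hist1h2bb. Part of these counts may therefore belong to other H2B genes. Hist2h2be, which lies in the Hist2 cluster, had 12.1 and 25.8 CPM in Ell2-KD libraries and 16.5 and 10.5 CPM in shGFP libraries, with no order between groups.

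H3 and H4 form the central tetramer of the nucleosome. H3 mRNA summed to 497 and 426 CPM in Ell2-KD libraries (461 ± 50.3, SD, n = 2), against 477 and 714 CPM in shGFP libraries (596 ± 168). Its log2 ratio was 0.06 within number 1, -0.75 within number 2, -0.37 for the group means and -0.05 without shGFP replicate 2. H3 was the class whose sum was lower in Ell2-KD replicate 2 than in Ell2-KD replicate 1, at 0.857 times its level. No H3 gene separated the groups in either direction.

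Hist1h3g was the H3 gene with the highest mean, with 115 and 39.2 CPM in Ell2-KD libraries against 168 and 87.9 CPM in shGFP libraries (log2 change -0.72, SE 0.53). It was higher in replicate 1 than in replicate 2 of both groups, like Hist1h1a. Hist1h3a had 55.3 and 97.5 CPM in Ell2-KD libraries and 68.8 and 184 CPM in shGFP libraries, and Hist1h3i had 76.2 and 84.0 CPM in Ell2-KD libraries and 51.2 and 117 CPM in shGFP libraries. Genes of the same class, which encode nearly the same protein, thus differed in which library was highest. Hist2h3c2-ps, a Hist2 entry, had 15.7 and 26.9 CPM in Ell2-KD libraries and 20.7 and 12.5 CPM in shGFP libraries.

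H4 varied most between libraries. It summed to 473 and 881 CPM in Ell2-KD libraries (677 ± 289, SD, n = 2), against 596 and 1511 CPM in shGFP libraries (1054 ± 646). The log2 ratio was -0.34 within number 1, -0.78 within number 2, -0.64 for the group means and 0.18 without shGFP replicate 2. Within each group the number 2 library was higher: 1.86 times replicate 1 in Ell2-KD cells and 2.53 times replicate 1 in shGFP cells. For H2A the same ratios were 1.21 in Ell2-KD cells and 1.97 in shGFP cells. H4 accordingly took 8.97% and 13.3% of histone counts in Ell2-KD replicates 1 and 2, and 10.6% and 15.5% in shGFP replicates 1 and 2. The difference between the numbers was thus larger than that between groups, which was 1.26-fold lower in Ell2-KD cells within number 1 and 1.71-fold lower within number 2. What else differed between the libraries numbered 1 and those numbered 2 is not given in the labels, and its part in these values was not tested.

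Hist1h4f was the most abundant H4 gene, with 69.4 and 152 CPM in Ell2-KD libraries against 99.2 and 389 CPM in shGFP libraries (log2 change -1.15, SE 0.92; edgeR adjusted p = 0.967). Hist1h4h had 79.5 and 166 CPM in Ell2-KD libraries and 80.6 and 291 CPM in shGFP libraries. Hist4h4, which shares no window with another gene, had 32.0 and 96.9 CPM in Ell2-KD libraries and 19.1 and 98.4 CPM in shGFP libraries. In all of these replicate 2 stood above replicate 1 in both groups, and for Hist4h4 the replicate numbers differed while the groups did not. Hist1h4c also varied widely, with 9.58 and 46.5 CPM in Ell2-KD libraries and 28.3 and 126 CPM in shGFP libraries, and was lower in Ell2-KD cells within both numbers (log2 differences -1.54 and -1.43).

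Hist2h4 did not follow the other abundant H4 genes. It had 1275 and 344 counts in Ell2-KD libraries and 1612 and 709 counts in shGFP libraries, which is 90.4 and 101 CPM against 192 and 141 CPM. The Ell2-KD libraries differed little, both lay below both shGFP libraries, and shGFP replicate 1, not replicate 2, was the highest. The log2 change was -0.80 (SE 0.27; 95% interval -1.40 to -0.20; edgeR adjusted p = 0.717), with -1.09 within number 1 and -0.48 within number 2. Its GENCODE transcript runs 1311 bases past the stop codon, beyond the stem-loop printed above, and holds an AATAAA poly(A) signal. So do the transcripts of 3 other H4 genes, Hist4h4, Hist1h4a and Hist1h4j, whose levels were higher in replicate 2 of both groups. Hist1h4i was the H4 gene whose Ell2-KD libraries both lay above both shGFP libraries, with 29.9 and 24.0 CPM against 19.2 and 23.2 CPM in shGFP cells (log2 change 0.35, SE 0.45).

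Of 18 tested genes for the transcription and 3′-end formation of histone mRNA, none passed the test. Of these, 7 were negative and 11 positive, with a median log2 change of 0.18, against -0.00 for all genes. Slbp, the stem-loop binding protein, had 145 and 116 CPM in Ell2-KD libraries and 126 and 99.8 CPM in shGFP libraries (log2 change 0.21, SE 0.28). Npat, the coactivator of histone genes at S phase, had 210 and 203 CPM in Ell2-KD libraries and 184 and 219 CPM in shGFP libraries. Casp8ap2 (FLASH), a part of the cleavage machinery, had 203 and 144 CPM in Ell2-KD libraries and 130 and 182 CPM in shGFP libraries.

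Of the U7-specific proteins, Lsm11 had 33.1 and 53.3 CPM in Ell2-KD libraries against 23.7 and 28.4 CPM in shGFP libraries, without overlap (log2 change 0.72, SE 0.42; edgeR adjusted p = 0.91). Lsm10 had 8.44 and 10.8 CPM in Ell2-KD libraries and 3.10 and 9.92 CPM in shGFP libraries. Zfp473, which encodes a zinc finger protein of the same machinery, had 11.9 and 14.3 CPM in Ell2-KD libraries and 17.3 and 17.7 CPM in shGFP libraries. Cstf2, the 64 kDa cleavage stimulation factor subunit shared with ordinary polyadenylation, had 506 and 438 CPM in Ell2-KD libraries against 368 and 257 CPM in shGFP libraries (log2 change 0.59, SE 0.24; edgeR adjusted p = 0.807).

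**Figure D4:**
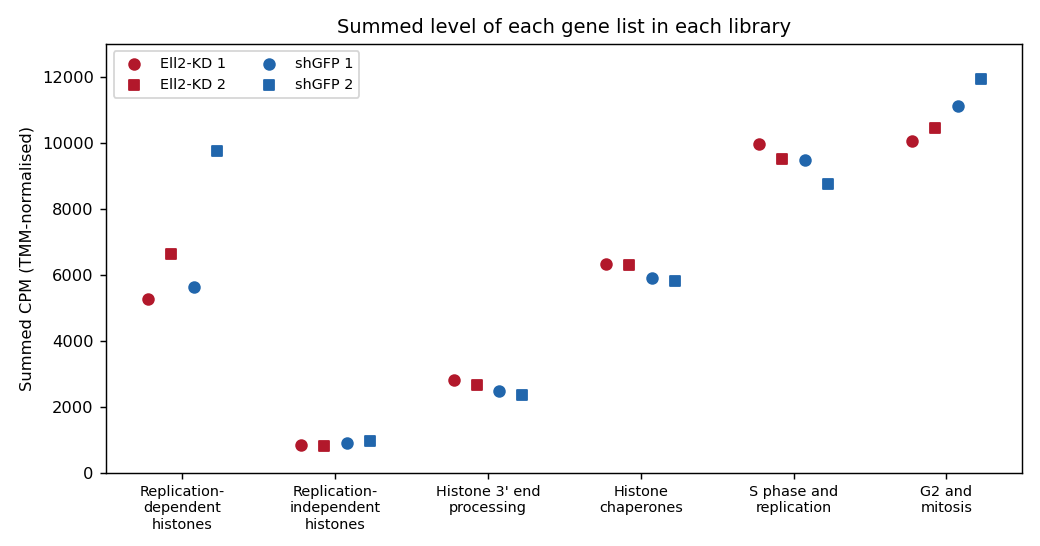
Summed TMM-normalised CPM of the replication-dependent histone genes and of 5 related gene lists in each library, Ell2-KD in red and shGFP in blue, circles for replicate 1 and squares for replicate 2. The histone sum of shGFP replicate 2 (9750 CPM) stands far above its other 3 libraries, while in the other 5 lists the 4 libraries lie close to one another. In none of these 5 lists do the groups overlap. Both Ell2-KD sums are higher for 3′ end processing, chaperones and S phase, and lower for replication-independent histones and for G2 and mitosis.

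Cell cycle genes were set beside the histone values. Of 55 tested S phase and replication genes none passed, 24 were negative and 31 positive, the median was 0.03, and they summed to 9970 and 9512 CPM in Ell2-KD libraries and 9493 and 8754 CPM in shGFP libraries. shGFP replicate 2, with the highest histone sum, had the lowest sum of S phase genes. Mcm4, a subunit of the replicative helicase, had 457 and 524 CPM in Ell2-KD libraries against 356 and 298 CPM in shGFP libraries (log2 change 0.58, SE 0.21; edgeR adjusted p = 0.756). Of 38 tested G2 and mitosis genes, 25 were negative and 13 positive (median -0.10), and they summed to 10059 and 10443 CPM in Ell2-KD libraries against 11117 and 11927 CPM in shGFP libraries. Ccnb2, cyclin B2, was the list's single gene past the threshold: it fell to 48.7 and 38.3 CPM in Ell2-KD libraries, against 174 and 187 CPM in shGFP libraries (log2 change -2.05, SE 0.29; edgeR adjusted p = 0.043, and 0.055 with scaling by library totals). The part of the cell cycle in the histone values was not tested.

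Replication-independent histone genes were expressed at a lower sum, 824 and 806 CPM in Ell2-KD libraries against 912 and 948 CPM in shGFP libraries. Of 9 tested, 7 were negative and 2 positive (median -0.07), and none passed. H2afz, for H2A.Z, had 119 and 162 CPM in Ell2-KD libraries and 107 and 175 CPM in shGFP libraries, and H3f3b, for H3.3, had 259 and 201 CPM in Ell2-KD libraries and 204 and 185 CPM in shGFP libraries. H2afx, whose stem-loop is printed above, had 42.4 and 31.9 CPM in Ell2-KD libraries against 76.6 and 78.6 CPM in shGFP libraries (log2 change -1.05, SE 0.33; edgeR adjusted p = 0.628). H1f0, the linker variant of non-dividing cells, had 49.7 ± 0.379 CPM in Ell2-KD libraries against 84.3 ± 2.51 CPM in shGFP libraries (SD, n = 2 each; log2 change -0.76, SE 0.30; edgeR adjusted p = 0.796). In both H2afx and H1f0 the groups did not overlap and the 2 shGFP libraries were nearly equal, unlike the replication-dependent sums. Other genes of this list differed from these 2. H3f3a had 27.95 and 86.07 CPM in Ell2-KD libraries and 15.02 and 99.22 CPM in shGFP libraries. H2afv had 37.4 and 79.9 CPM in Ell2-KD libraries and 47.7 and 74.4 CPM in shGFP libraries. For H3f3a, H2afv and H2afz replicate 2 was higher than replicate 1 in both groups. For H2afy, H2afj, H3f3b and Cenpa it was lower in both groups.

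The histone chaperones and the partners of Ell2 gave no further calls. Of 28 tested chaperone genes, 12 were negative and 16 positive (median 0.09), and they summed to 6313 and 6282 CPM in Ell2-KD libraries and 5913 and 5799 CPM in shGFP libraries. Of 6 tested genes of the ELL family and the little elongation complex, Ell2 passed. Ell had 13.7 and 29.9 CPM in Ell2-KD libraries and 13.9 and 23.6 CPM in shGFP libraries, and Narg2 (Ice2), a subunit of the little elongation complex, had 65.6 and 77.3 CPM in Ell2-KD libraries and 79.2 and 56.9 CPM in shGFP libraries.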

How the data were processed

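The authors deposited 1 table of gene read counts for each of 4 SOLiD RNA-Seq libraries of MPC11 cells (2 Ell2-KD and 2 shGFP). The values are whole-number counts per gene symbol with totals that differ between libraries, and were treated as unnormalised. Tools named in the submitters' processing notes are HTSeq 0.5.3, SAMtools 0.1.11 and DESeq 1.4.1, with the mouse build mm9. Not given in the sources used here are the annotation, the aligner, whether counting used strand, and the treatment of reads that fit several genes, which bears directly on histone genes.

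The test was run over all genes with edgeR 4.0.16 in R 4.3.3: filterByExpr (minimum count 10, minimum total 15), TMM scaling, glmQLFit with robust settings and glmQLFTest with group as the only term, two-sided, with Benjamini-Hochberg adjustment and a threshold of 0.05. Library totals ran from 3496471 to 13914488 counts and pairwise correlations of log2 CPM from 0.871 to 0.919, so no library was a copy of another. The biological coefficient of variation (common dispersion) was 0.43. A standard error is the size of the log2 change divided by the square root of F. Class sums are summed CPM and carry no test: 2 libraries against 2 cannot give an exact permutation p below 0.333. Log2 CPM differences within a replicate number used a prior count of 2. The procedure was tested on simulated data.

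Alternatives were other scalings, filters, DESeq2 1.42.0, a replicate block and leaving out each library. The rule for named genes took Ell2, Hist2h4 and Hist1h2ak, in each class the 3 most abundant members and that with the smallest p in each direction, and likewise 4 and 1 of each related list, of which the text gives those closest to histone genes. Hist1h1c, Hist1h2an, Hist1h4c, Hist4h4, the members whose groups did not overlap and the promoter pairs were named after their values were seen. So were H3f3a, H2afv, H2afj and Cenpa. The members and lists were chosen with earlier results of these data known. Stem-loops were read from GENCODE M21 transcripts and promoters from RefSeq (GRCm38.p6), a later build than that of the counts, so these coordinates were not used to locate reads. Symbols were matched through RefSeq names.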

Additional observations from a re-analysis of the deposited data

How the results depend on the processing

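With 2 libraries a group, the counts of calls depended on the settings. Against 5 genes past the threshold in the edgeR test, there were 2 with scaling by library totals, 22 without a filter, 28 with a replicate block, 43 with the DESeq2 Wald test, and 14 to 142 when 1 library was left out. Of the histone genes, 0 passed under any scaling, filter, test or the replicate block, and 0 to 2 passed when 1 library was left out. Those were Hist1h4c and Hist1h4f without shGFP replicate 1 (log2 changes -2.19 and -1.81, edgeR adjusted p = 0.014 and 0.00051), Hist1h1a and Hist1h3g without Ell2-KD replicate 1 (-1.08 and -1.71, edgeR adjusted p = 0.035 and 0.0096) and Hist1h4c without Ell2-KD replicate 2 (-2.99, edgeR adjusted p = 0.0045). A single library left in a group is assumed to vary like the other group. The replicate block moved the members' median to -0.28, with 41 of 58 negative. Same-numbered libraries deviated together (correlation 0.31 over 11027 genes), but the labels do not say that a number marks a shared day or culture, so the block was not the main analysis. When 1 library was left out, the median of the members ran from -0.63 to 0.15. Over the same settings the log2 ratio of group means ran from -0.71 to 0.082 for all histone genes, -0.75 to 0.23 for H2A, -0.64 to 0.25 for H2B (0.0015 without Ell2-KD replicate 1) and -1.16 to 0.18 for H4. In each of these, the highest value was that without shGFP replicate 2. With the median of the members in place of the sum, H2B stood at -0.64 within number 2 and H4 at -0.0038 within number 1. For the average of a member's 2 within-number differences, that median was -0.57 for H2B and -0.31 for H4. Without Hist2h2bb, H2B within number 2 was -0.63. The scalings tried kept the direction of every class ratio. Of the single genes, Ccnb2 with library totals was at -2.05 (edgeR adjusted p = 0.055), H2afz turned to 0.032 without a filter and 0.017 with the block, and Hist1h3i to 0.0019 without a filter and 0.056 with the block. Leaving out 1 library changed the sign of 27 named genes, none of them past the threshold with all 4 libraries. Their lowest and highest log2 changes were: Atrx -0.27 and 0.12, Casp8ap2 -0.12 and 0.41, Ccna2 -0.39 and 0.17, Cenpf -0.41 and 0.075, Ell -0.44 and 0.68, Eri1 -0.30 and 0.078, H2afy -0.53 and 0.031, H2afz -0.31 and 0.38, Hist1h1b -0.62 and 0.26, Hist1h1d -0.41 and 0.042, Hist1h1e -0.76 and 0.11, Hist1h2ab -0.67 and 0.31, Hist1h2ai -1.20 and 0.15, Hist1h2bg -0.62 and 0.025, Hist1h3a -1.27 and 0.14, Hist1h3i -0.53 and 0.64, Hist1h4f -1.81 and 0.15, Hist1h4h -1.24 and 0.60, Hist2h2bb -0.64 and 0.32, Hist2h2be -0.15 and 0.93, Hist2h3c2-ps -0.077 and 0.77, Hist3h2a -0.41 and 0.26, Lsm10 -0.036 and 1.62, Narg2 -0.15 and 0.34, Npat -0.073 and 0.16, Rrm1 -0.26 and 0.081, and Top2a -0.28 and 0.45. The genes named by the rule kept their direction and their side of the threshold in 614 other cases. Of these genes, Hist1h4f, Hist1h1a and Hist1h3g passed the threshold only with a library left out (above). So did Hist1h4c, which the rule did not name. The cause of these shifts was not tested. Depth limits the weakest members, since 1 count in Ell2-KD replicate 2 was worth 0.293 CPM, and the unknown assignment of reads between near-identical copies limits the values of core histone genes that share most of their sequence.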
